A study of Saccharomyces cerevisiae with 6 samples.

Results

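The DNA damage checkpoint genes described here are 10 genes of budding yeast, chosen by name with earlier results of these data known. They are RAD24, which encodes the loader of the checkpoint clamp, RAD17, MEC3 and DDC1, which encode the clamp, RAD9, MRC1 and TOF1, which encode adaptors, and DUN1, CHK1 and TEL1, which encode kinases. All 10 had a probe set on the expression arrays, among 5449 genes with one. On the barcode arrays 9 of the 10 genes had a deletion strain, and no feature was annotated to CHK1. MRC1 had 2 strains, so 10 strains of 4303 were examined. The gene table lists an older open reading frame, YCL060C, as a synonym of MRC1, and the files do not say how its 2 strains differ.

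The clamp is a ring of Rad17, Mec3 and Ddc1 that the Rad24 form of replication factor C places around DNA at the edge of single-stranded DNA, such as that made by resection of a broken end. The loaded clamp helps to activate Mec1, the ATR-like kinase. Rad9 relays the signal from Mec1 to the effector kinase Rad53 after DNA damage, and Mrc1 does so at stalled forks, where it travels with Tof1. Downstream, Dun1 raises the supply of deoxynucleotides and Chk1 restrains anaphase, while Tel1, the ATM-like kinase, is recruited to breaks through Xrs2. In budding yeast, Rad9 bound near a break is known to slow resection.

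The study measured the genes in separate experiments. For integration, pooled homozygous diploid deletion mutants received a linear URA3 cassette with ends matching ISU1 or SOD2, and the control pool received the circular plasmid pRS416. Transformants were selected on medium without uracil. Each strain carries DNA barcodes, and barcodes amplified from the cassette pool and the plasmid pool were compared on 1 two-colour array per cassette. The plasmid pool carried Cy5 on the ISU1 array and Cy3 on the SOD2 array. For expression, total RNA came from log-phase cultures in synthetic complete medium. There were 2 arrays of haploid BY4741 (wild type) and 2 of a strain named as BY4741 deleted for FUN30, a nucleosome remodeller gene. Separate cultures are not named for the 2 arrays of a genotype, and p-values therefore cover the spread between these arrays alone. With no second isolate named, the FUN30 deletion and any other difference between these strains cannot be told apart.

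The FUN30 probe set had log2 signals of 3.36 and 3.55 on the deletion arrays and 9.63 and 9.40 on the wild-type arrays, so the labels hold for the targeted gene. Both deletion signals were under the background level of 5.24, the 95th percentile of probe sets annotated outside the S. cerevisiae gene table. The a-specific genes STE2, MFA1, MFA2, BAR1 and AGA2, which mark the MATa mating type of BY4741, had mean signals from 11.3 to 13.6, and all 5 were lower in the deletion (median difference −0.23), none past the test. Of 4 alpha-specific genes, MF(ALPHA)1 lay below background at 4.49 (deletion) and 4.83 (wild type), while 3 lay above it and were higher in the deletion: STE3 at 8.29 against 7.81, SAG1 at 9.35 against 9.11 and MF(ALPHA)2 at 6.24 against 5.97. STE3 passed (difference 0.48, adjusted p = 0.0343, limma), and lost its call in 3 of 11 alternatives, without fun30 deletion replicate 2, without wild type replicate 1 and with all probe sets tested (adjusted p from 0.067 to 0.110). The part of these differences in the expression results was not tested. Of the genes that are mutant in BY4741, URA3 and LEU2 lay below background in both genotypes and HIS3 lay at 12.7 and 12.9. MET17 was at 5.48 in the wild type and 12.99 in the deletion. The genotypes thus differed at a marker that is mutant in BY4741, which goes against the strain name they share. The part of this difference in the expression results was not tested.

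Integration was measured to find deletions that change the yield of a linear cassette relative to a circular plasmid. Which pool is the ratio's numerator is not given in the labels, so strains are placed only above or below the median of the array. Ratios are given on the log2 scale after subtracting that median, so that −1 is a ratio 2-fold below it. Over 4235 strains the arrays correlated with r = 0.53, and their deposited sign was kept on both. The plasmid pool carried opposite dyes on the arrays, so a ratio of fixed dyes would run in opposite senses on them. Counts and means over both arrays therefore assume that the deposited ratios run in the same sense, which was not tested. The features of a strain, its barcodes, differed from their mean by an SD of 0.28 on each array, which gives an error of 0.28 for a strain with 1 feature and 0.198 for a strain with 2. There was 1 array per cassette, so integration values have no replicate check and no p-value.

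All 4 strains lacking the clamp or its loader lay below the median on both arrays, as did 1288 of all 4235 strains. The strain means of these 4 ran from −0.94 to −0.64 on the ISU1 array and from −1.51 to −1.06 on the SOD2 array. The strains lacking RAD9 or DUN1 lay above the median on both arrays, as did 1279 of all strains. Those lacking MRC1, TOF1 or TEL1 lay between −0.48 and 0.50. The mean of the clamp and loader strains was −0.82 on the ISU1 array (SD over 4 strains 0.13) and −1.21 on the SOD2 array (SD 0.20). The mean of the 6 adaptor and kinase strains was 0.26 (SD 0.74) and 0.37 (SD 0.71). The difference between the means was −1.07 on the ISU1 array, then −1.58 on the SOD2 array, which is 2.10-fold and 2.99-fold, with an error from the spread of features of 0.14 on each. Strains are not replicates of a condition, and the difference was not tested.

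**Figure D1:**
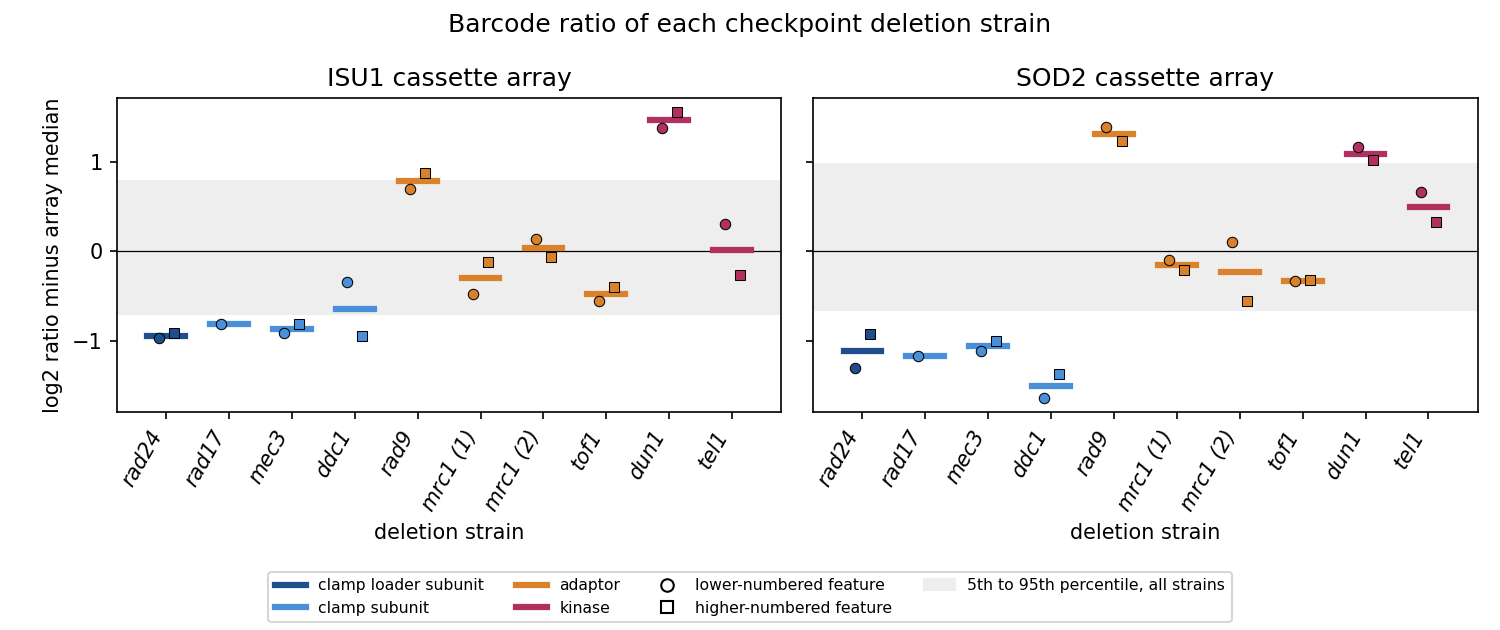
Log2 ratio minus array median (y axis) of each checkpoint deletion strain (x axis) on the ISU1 array (left) and the SOD2 array (right). Bars are strain means, circles and squares are the lower- and higher-numbered features, and the grey band spans the 5th to 95th percentile of all strains. The 4 clamp and loader strains sit at the bottom of both panels, and rad9 and dun1 sit at the top.

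The rad24 strain had deposited ratios of 0.51 and 0.53 for its features on the ISU1 array, then 0.43 and 0.56 on the SOD2 array. Its strain values were −0.94 and −1.11, and 2.24% and 0.909% of all strains lay lower. All 4 readings lay below the median, from −1.30 to −0.92.

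Of the clamp strains, mec3 had the closest features, with ratios of 0.53 and 0.57 on the ISU1 array, then 0.49 and 0.53 on the SOD2 array (strain values −0.86 and −1.06). The rad17 strain had 1 feature in the table, with ratios of 0.57 and 0.47 (values −0.81 and −1.17), so it has the larger error of 0.28. The ddc1 strain had ratios of 0.79 and 0.52 on the ISU1 array, then 0.34 and 0.41 on the SOD2 array (values −0.64 and −1.51). Its ISU1 features stood 0.60 apart, where the median gap over all strains was 0.24 and the 95th percentile 0.80. All 14 readings from the 7 features of clamp and loader strains were below the median, from −1.64 to −0.34. These readings share strains and arrays, so they are not independent of each other. The least of them, −0.34 for ddc1 on the ISU1 array, overlapped the readings of tof1 and of mrc1 (down to −0.47) on that array.

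The 4 clamp and loader strains could not be put in order. Their means over both arrays ran from −1.07 for ddc1 to −0.96 for mec3, with steps between neighbours of 0.03 to 0.05, while the spread between the arrays over all strains gives an error of 0.35 for such a step. The next step, from mec3 to tof1, was 0.56 and exceeded that error, which is 1 SE. The strains were sorted by these same values, and the step was not tested.

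Among the adaptors, rad9 had ratios of 1.62 and 1.84 on the ISU1 array, then 2.79 and 2.50 on the SOD2 array. Its strain values were 0.79 and 1.32, so rad9 lay on the opposite side of the median from the clamp and loader strains with every feature. The tof1 strain had ratios of 0.68 and 0.76, then 0.84 and 0.85, and values of −0.48 and −0.33. It lay below the median with all 4 readings, within the 5th to 95th percentile range of all strains on both arrays, which was −0.70 to 0.79 and −0.66 to 0.98. The first mrc1 strain had values of −0.30 and −0.15 and the second 0.04 and −0.23. The mrc1 strains differed from each other by 0.13 in the mean of both arrays, less than the error of 0.198 from features alone.

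Among the kinases, dun1 had ratios of 2.61 and 2.94 on the ISU1 array, then 2.38 and 2.15 on the SOD2 array. Its values were 1.47 and 1.09, and 99.0% and 96.4% of strains lay lower. The tel1 strain had ratios of 1.24 and 0.83, then 1.68 and 1.33, and values of 0.02 and 0.50. Its ISU1 features lay on opposite sides of the median, and both SOD2 features lay above it. In the order of the means over both arrays, tel1 (0.26) stood 0.79 below rad9 (1.05), and rad9 stood 0.23 below dun1 (1.28), within the error of 0.35. The rad9 strain was the higher of the pair on the SOD2 array and dun1 on the ISU1 array.

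By the mark of 2-fold on both arrays, 1 of the 10 strains was counted above the median, dun1, and 0 below, where 1.91% of all strains lay above and 0.638% below. The clamp and loader strains fell short of it only on the ISU1 array. On the SOD2 array alone, 4 strains, all of the clamp and loader, were past 2-fold below (1.38% of all strains) and 2 strains, rad9 and dun1, were past it above (4.73% of all strains). On the ISU1 array alone, dun1 was the 1 strain past 2-fold, in a background of 3.23% above and 1.86% below. At 1.5-fold on both arrays the counts were 4 below (background 2.34%) and 2 above (background 4.91%), with the same 6 strains.

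**Figure D2:**
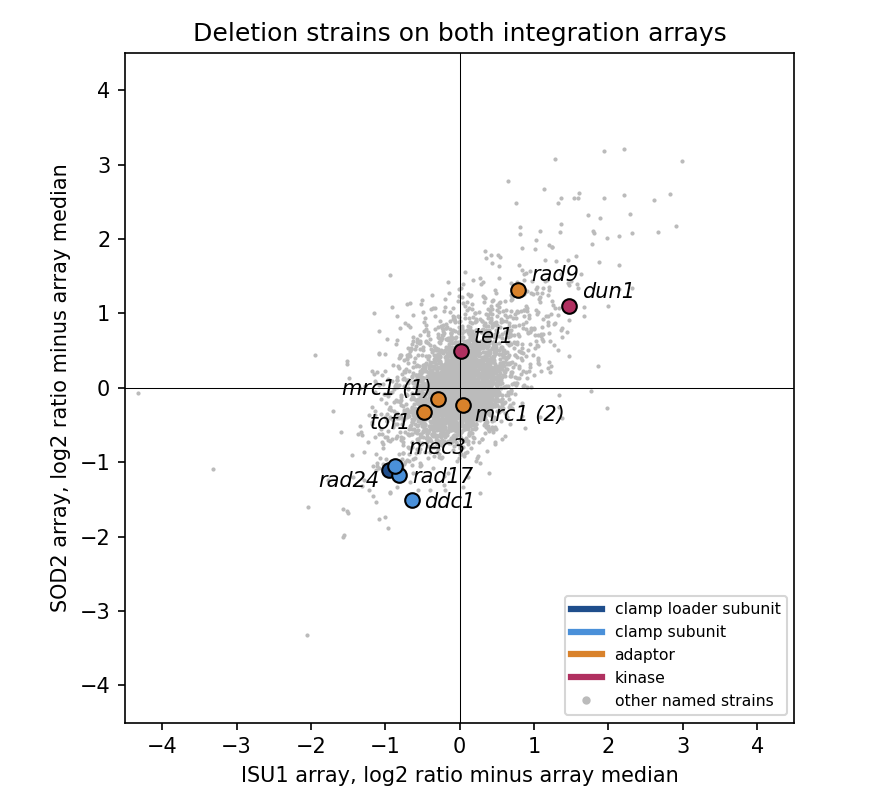
Each point is a deletion strain with a gene name, by its log2 ratio minus array median on the ISU1 array (x axis) and on the SOD2 array (y axis), with the checkpoint strains in colour. The clamp and loader strains lie together in the lower left, rad9 and dun1 lie apart from them in the upper right, and mrc1, tof1 and tel1 lie within the main cloud.

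The arrays gave unlike values for ddc1. Its SOD2 value minus its ISU1 value was −0.86, below the 5th percentile of that difference over all strains (−0.67), and 1.94% of strains had a lower difference. The difference was wider in its lower-numbered feature (−0.34 on the ISU1 array, −1.64 on the SOD2 array) than in the higher-numbered (−0.94 and −1.37). The SOD2 strain value minus the ISU1 strain value was −0.17 for rad24, −0.36 for rad17 and −0.19 for mec3. It was 0.53 for rad9 and −0.38 for dun1, and all strains but ddc1 stayed within the 5th to 95th percentile range of −0.67 to 0.90.

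Strains lacking genes that lie beside the checkpoint genes on the chromosome were compared in the same way, by the 3 nearest genes with a strain on each side. Of 24 such strains around the clamp and loader genes, 0 lay past 1.5-fold below the median on both arrays, where the share over all strains was 2.34%, and their means over both arrays ran from −0.51 to 1.03. The highest was bck2, near RAD24, at 1.05 and 1.02. Around RAD9 and DUN1, 0 of 12 lay past 1.5-fold above on both arrays, where the share over all strains was 4.91%, with means from −0.51 to 0.61. Counts this small are near those shares, and nothing is read from them. Of all 61 such strains, 1 was past 1.5-fold below on both, avt5, which lacks a relative of vacuolar amino acid transporter genes next to TEL1 and had values of −1.01 and −1.74. Another 2 were past it above, bck2 and a vac17 strain next to MRC1 (1.11 and 0.92). These 3 were named after their values were seen.

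The named strains whose pair of values lay nearest to the clamp and loader mean were sought among 3277 with both features on both arrays, by Euclidean distance over the 2 arrays. The nearest 8 lacked NEW1, CWH43, NAM8, SLI15, RPL21B, CYC2, RPL6A and HIR1, at distances from 0.15 to 0.26. The clamp and loader strains themselves lay 0.04 (rad17) to 0.34 (ddc1) from their mean, and 17 other named strains lay within that largest distance. The likeness rests on 2 arrays.

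Other genes of the pathway were followed through 4 lists. Of 18 other checkpoint genes, 12 had a strain with values on both arrays, with list medians of 0.03 and 0.21 where all strains had −0.01 and 0.01. In that list 5 strains lay above the median on both arrays and 3 below, where 1279 and 1288 of all 4235 strains did. Over all strains, 1.91% were past 2-fold above and 2.34% past 1.5-fold below on both arrays. The slx4 strain, which lacks a scaffold of DNA repair nucleases, was the 1 strain past 2-fold above on both, at 2.32 and 1.34. The ptc2 strain, which lacks a phosphatase that acts on Rad53, was the 1 strain past 1.5-fold below on both, at −0.96 and −0.70, and all 4 clamp and loader strains had lower means over both arrays than ptc2 (−0.83). The rtt107 strain, which lacks an Slx4 partner, lay at 0.90 and 0.13, and ptc3 at −0.06 and −0.48.

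The sliding clamp list, which holds the replication clamp and the other loaders, had 2 strains of 10 genes. The elg1 strain, which lacks the large subunit of a clamp unloader related to Rad24, lay above the median at 0.70 and 1.23, opposite to rad24. The dcc1 strain, which lacks a subunit of the Ctf18 loader, lay at −0.42 and 0.15. Of the end resection list, 3 of 9 genes had strains with both arrays. The strains exo1 (−1.31 and −1.33) and sgs1 (−1.29 and −0.86), lacking a nuclease and a helicase of long-range resection, lay below as the clamp and loader strains did. The sae2 strain, lacking a cofactor of the Mre11 complex, lay at −0.02 and 0.40. The xrs2 strain, lacking a subunit of the Mre11 complex, had a value on the ISU1 array alone, 0.94 from 1 feature, opposite to exo1 and sgs1, and 96.4% of strains lay lower.

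Of the checkpoint output list, 5 of 10 genes had a strain. The rad54 strain, which lacks a recombination translocase, lay at 1.88 and 2.28, past 2-fold above on both arrays and higher than rad9 and dun1. Each value came from 1 feature, the lower-numbered on the ISU1 array and the higher-numbered on the SOD2 array. No feature of rad54 was therefore read on both arrays. The rnr3 strain, lacking a large subunit of ribonucleotide reductase, lay at 0.32 and 0.33. The dif1 strain, lacking a regulator of where the small reductase subunits reside, lay at −0.42 and −0.60, and din7 at 0.16 and −0.31.

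**Figure D3:**
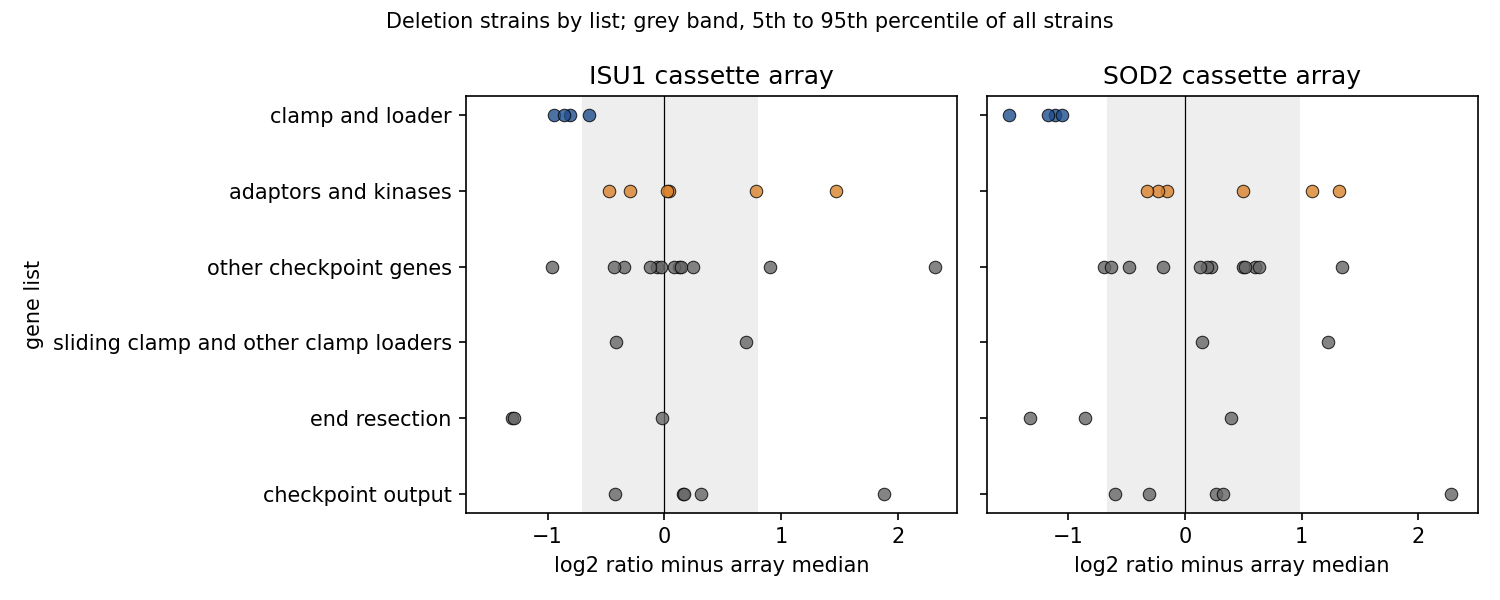
Deletion strains with values on both arrays, by list (rows) and log2 ratio minus array median (x axis), on the ISU1 array (left) and the SOD2 array (right), with the 5th to 95th percentile range of all strains in grey. The clamp and loader strains form a narrow group below the median, while the adaptors and kinases and the 12 other checkpoint strains spread to both sides.

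Expression of the 10 genes was compared between the FUN30 deletion and the wild type with limma, fitted over 5498 probe sets, with Benjamini-Hochberg adjustment over all of them and a threshold of 0.05. RAD9 rose and none of the other 9 genes passed. A rise was called for 1.36% of all probe sets and a fall for 1.29%, 2.66% together. The unadjusted p in limma was under 0.05 for 1 of the 10 genes, again RAD9, against 22.2% of all probe sets. The median difference was 0.05 (log2) over the 10 genes and −0.003 over all probe sets, and the median size of the difference was 0.09 against 0.11. The arrays of the genotypes did not overlap for 7 of the 10 genes, in a background of 58.5% of probe sets. These are signals of whole cultures, in which fewer cells expressing a gene and less RNA per cell cannot be told apart.

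RAD9 had log2 signals of 9.94 and 9.95 on the deletion arrays and 9.10 and 9.07 on the wild-type arrays. The difference of 0.86 ± 0.06 (SE, adjusted p = 0.00686 with limma) was 1.82-fold, with a 95% interval of 0.70 to 1.02. It was larger in size than that of 98.5% of probe sets.

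**Figure D4:**
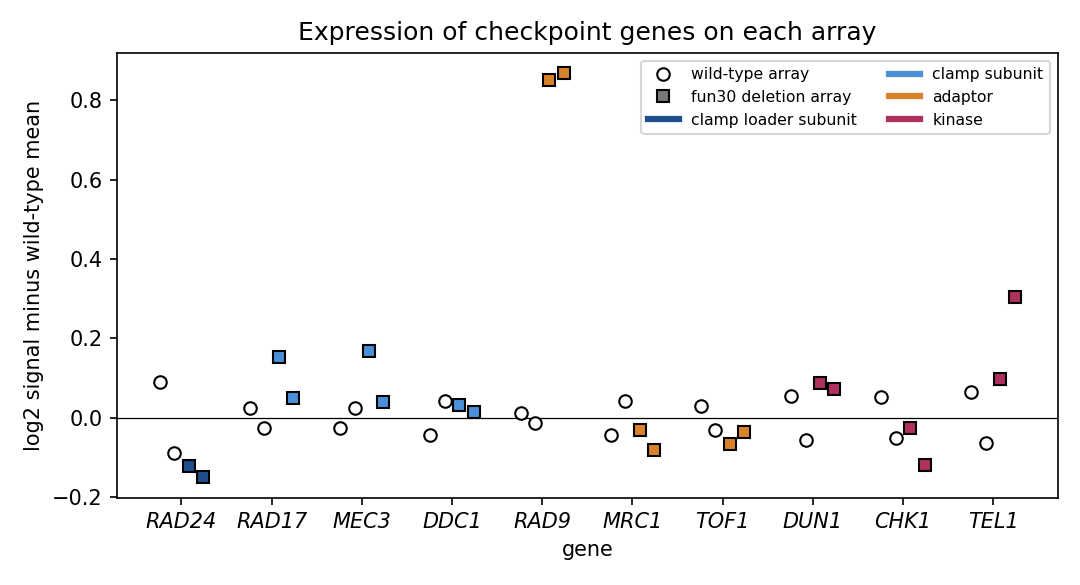
Log2 signal minus the wild-type mean of the same probe set (y axis) for each checkpoint gene (x axis), with open circles for the 2 wild-type arrays and filled squares for the 2 FUN30 deletion arrays. RAD9 stands apart by 0.86, and for the other 9 genes the deletion mean lies between −0.14 and 0.20.

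Genes beside RAD9 on chromosome IV were also higher in the deletion. Of its 3 nearest measured genes on each side, 4 of 6 rose, where 1.36% of all probe sets did. They were ADR1, an activator of glucose-repressed genes (1.06 ± 0.11 SE, adjusted p = 0.0171, limma), the chaperone cofactor gene AHA1 (0.87), MFB1 (1.08) and GTB1 (1.03). UPC2, a regulator of sterol genes, had a difference of 0.62 (adjusted p = 0.0578, limma), and passed in 8 of 11 alternatives, with each array left out among them (adjusted p from 0.00836 to 0.0778 over the 11). The septin-related gene SPR28 had 0.33, from signals of 4.85 to 5.37 that lay near the background level. Between 4 and 6 of the 6 neighbours rose over the fits that kept every array and tested all 6. All 6 rose with the replicate block, where 794 probe sets were called in either direction in place of 146. The median difference of the 6 neighbours was 0.95, and RAD9 lay within their range of 0.33 to 1.08.

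**Figure D5:**
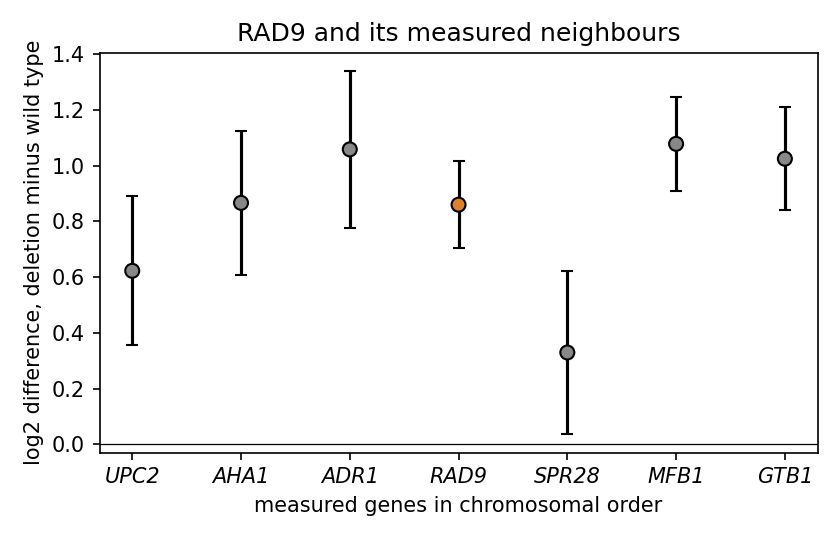
Log2 difference between the FUN30 deletion and the wild type (y axis) for RAD9 and its 3 nearest measured genes on each side in chromosomal order (x axis), with 95% intervals from limma. RAD9, in orange, lies at 0.86, and its neighbours lie between 0.33 and 1.08.

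None of the 4 clamp and loader genes passed with limma (0 at an unadjusted p under 0.05). RAD24 had signals of 8.80 and 8.77 against 9.01 and 8.83 in the wild type, a difference of −0.14 with a 95% interval of −0.35 to 0.07. RAD17 had 8.90 and 8.80 against 8.77 and 8.72, a difference of 0.10 (−0.08 to 0.28). In both genes the arrays of the genotypes did not overlap, but the interval included 0. MEC3 had 9.89 and 9.76 against 9.70 and 9.75, a difference of 0.10 (−0.09 to 0.29), and its arrays did not overlap either. DDC1 had 8.14 and 8.13 against 8.07 and 8.15, a difference of 0.02 (−0.15 to 0.19), and its arrays overlapped.

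Of the other adaptors, MRC1 had signals of 9.53 and 9.48 in the deletion, against 9.52 and 9.60 in the wild type, a difference of −0.06 (95% interval −0.23 to 0.12). TOF1 had 8.45 and 8.48 against 8.55 and 8.49, a difference of −0.05 (−0.22 to 0.11). The arrays of the genotypes overlapped for MRC1, and those of TOF1 did not.

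Of the kinase genes, TEL1 had the widest difference, with signals of 9.16 and 9.37 in the deletion, against 9.13 and 8.998 in the wild type. The difference was 0.20 ± 0.10 (SE, adjusted p = 0.297, limma), with an interval of −0.05 to 0.45. DUN1 had 9.81 and 9.79 against 9.78 and 9.67, a difference of 0.08 (−0.10 to 0.26). CHK1 had 11.11 and 11.01 against 11.18 and 11.08, a difference of −0.07 (−0.26 to 0.12). The arrays of the genotypes did not overlap for TEL1 and DUN1, and those of CHK1 did.

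In the 4 pathway lists, 46 of 47 genes were measured, and 1 rose and 1 fell, both in the checkpoint output list of 9 measured genes. Over all probe sets, 1.36% rose and 1.29% fell. HUG1, a small inhibitor of ribonucleotide reductase that the Mec1 and Dun1 pathway induces, had 8.16 and 8.04 in the deletion, against 7.38 on each wild-type array. It rose by 0.72 ± 0.07 (SE, adjusted p = 0.0145, limma). RNR1, the main large subunit of the reductase, had 9.73 and 9.23 against 10.81 and 10.62, and fell by 1.23 ± 0.18 (SE, adjusted p = 0.0367, limma). The RNR1 call was lost without wild type replicate 1 (adjusted p = 0.130, limma).

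Of 18 other checkpoint genes none passed (6 at an unadjusted p under 0.05 in limma, where 22.2% of all probe sets were). Widest were −0.49 for CDC5, a mitotic kinase, and 0.30 for RFX1, the repressor of the reductase genes that Dun1 acts on. Of 10 genes of the sliding clamp and other loaders none passed (3 at an unadjusted p under 0.05 in limma), with −0.63 for POL30, the replication clamp, and −0.44 for CTF18. Of 9 resection genes none passed (2 at an unadjusted p under 0.05 in limma), with 0.37 for XRS2 and −0.19 for MRE11. Calls were gained when 1 array was left out. Without fun30 deletion replicate 1, POL30 was called at −0.87 (adjusted p = 0.00298, limma) and CTF18 at −0.58 (adjusted p = 0.0217, limma), and POL30 ran from −0.87 to −0.38 over the fits that left out 1 array. Without wild type replicate 2, CDC5 was called at −0.67 (adjusted p = 0.0225, limma), as was ELG1. List medians lay between −0.09 and 0.07.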

How the data were processed

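The deposited expression table holds a log2 signal for each probe set on each array, made by the authors with RMA (background correction, normalization between arrays and probe summary), per the submitters' processing notes. Because RMA equalises the arrays, a shift of the whole transcriptome would be lost. Integration values are linear ratios of both channels as deposited by the authors, with scaling and numerator not given in the labels. Intensities and depth are not given, and the number of arrays limits the precision.

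Probe sets and barcode features were named through the platform annotation and the RefSeq gene table (R64), used for names and gene order only. Of 10928 probe sets, 5498 named 1 gene of that table and were tested. Feature numbers that differ by 10971 were taken as the barcodes of 1 strain, and all 3400 such pairs with names on both named the same gene. Ratios were converted to log2, centred on the array median (1.00 and 1.06 before) and averaged over a strain's features. Of 8120 features, 158 lacked an ISU1 value and 42 a SOD2 value.

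Expression was tested with limma 3.58.1 in R 4.3.3, with genotype alone, 2-sided, with 2 residual and 3.23 prior degrees of freedom. Python 3.11.15 was used for the rest, and the procedures were tested on simulated data. The members and lists were chosen with earlier results of these data known. Named genes were all members, FUN30, strain markers, and from each list all genes past the threshold or else the 2 with the widest difference. Named strains were the 2 highest and 2 lowest of each list by the mean of both arrays and the 8 nearest to the clamp and loader mean, with neighbours of RAD9 named in expression. Alternatives covered the replicate block, each array left out, filters, normalization, the variance prior, each feature alone, centring, scale and fold marks.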

Additional observations from a re-analysis of the deposited data

Results flagged for a closer look

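Among the strains described, 4 lay on opposite sides of the array median on the 2 integration arrays, and these differences were not tested. The SOD2 value minus the ISU1 value was −0.27 for the second mrc1 strain (0.04 for ISU1 and −0.23 for SOD2) and −0.47 for din7. It was 0.42 for sae2 and 0.57 for dcc1. On the ISU1 array the features of sae2 (−0.38 and 0.33) and of dcc1 (0.03 and −0.86) themselves lay on opposite sides of the median. So did those of the second mrc1 strain on both arrays. All 4 lay within the range from the 5th to the 95th percentile of that difference over all strains, −0.67 to 0.90.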

How the results depend on the processing

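RAD9 was the 1 checkpoint gene of 10 called in expression under all 11 alternatives, with a difference from 0.85 to 0.90 and an adjusted p from 0.00154 to 0.0249 (limma). Of 110 comparisons of single members with an alternative, 108 kept direction and call. The sign turned for DDC1 without an array (−0.019 to 0.067 over the fits that left out 1) and for TOF1 with quantile normalization repeated (0.048). The cause was not tested. The labels do not tie same-numbered arrays, whose deviations correlated with r = 0.26, and with the replicate block 1 member and 9 partner list genes were called, against 2 of the latter without it, and 794 probe sets in place of 146. The 7 genes gained with the block were POL30 (adjusted p = 0.00781, limma), CTF18, CDC5, RFX1, XRS2, ELG1 and PPH3. With 1 array left out, 1 to 4 partner list genes were called, and all probe sets called ranged from 75 without wild type replicate 1 to 423 without fun30 deletion replicate 1.

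For integration with arrays scaled to equal spread, 1 member strain was past 2-fold above on both arrays and 1 below (81 and 27 of all 4235 strains). At 1.5-fold on both arrays 2 were above and 4 below (4.91% and 2.34% of all strains). On the SOD2 array alone 2 were past 2-fold above and 4 below (4.73% and 1.38% of all strains). The difference between the clamp and loader mean and the adaptor and kinase mean on the SOD2 array was −1.79 with the lower-numbered feature alone and −1.35 with the higher. With medians of strains it was −0.87 (ISU1 array) and −1.31 (SOD2 array). Of 116 comparisons of single member strains, 110 moved by less than the feature error. The other 6 were single-feature values of ddc1 and tel1 on the ISU1 array and of the second mrc1 strain on the SOD2 array. With 1 array per cassette, no interval could be given for integration.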
